A study of Mus musculus with 8 samples.

Results

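RNA-sequencing counts from 8 libraries, 4 groups of 2, were examined for the 10 genes that write, maintain and remove methylation of cytosine in DNA. These are the DNA methyltransferase genes Dnmt1, Dnmt3a and Dnmt3b, the cofactor genes Dnmt3l, Uhrf1 and Uhrf2, the dioxygenase genes Tet1, Tet2 and Tet3, and the glycosylase gene Tdg. They were chosen for what their products do and were found by Ensembl ID among 46078 gene IDs in the count tables. All 10 had a mean count above 10 and entered the tests, as did 16707 genes in all.

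All cells were mouse, C57BL/6 and XY by their labels. tcESCs are embryonic stem cells carrying tesco-cfp, a CFP reporter driven by a testis enhancer of Sox9, and tc;Sf1ESCs are 1 drug-selected tcESC clone with an added transgene for Sf1, the nuclear receptor gene Nr5a1. Both were grown in the serum-free medium N2B27 with 2i and LIF. SCLCs, Sertoli cell-like cells in the study and testicular somatic cell-like cells by their label, are the CFP-positive cells sorted on day 12 from a mixed testicular somatic culture of tc;Sf1ESCs. todPGCLCs, primordial germ cell-like cells, were derived from Prdm1-gfp ESCs, which carry neither tesco-cfp nor the Sf1 transgene, and were sorted on day 6 from organoids made with the testicular cells. The Prdm1-gfp line has no ESC library here, so in every comparison with todPGCLCs the parental line and the cell state cannot be told apart. SCLCs and todPGCLCs were cultured in other media than the ESCs, and medium and cell state cannot be told apart in comparisons with ESCs. The clone and the transgene likewise cannot be told apart in tc;Sf1ESCs, and the 2 libraries of a group are described as biological duplicates without a statement of separate derivations.

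Methylation of CpG sites is copied after replication by DNMT1, which UHRF1 brings to newly made DNA, and it is set anew by DNMT3A and DNMT3B with the help of the inactive relative DNMT3L. TET enzymes oxidise methylcytosine stepwise, and TDG cuts out the most oxidised forms for replacement by base excision repair. Mouse ESCs kept in 2i hold little DNA methylation, somatic cells hold much, and germ cell precursors lose nearly all of it, with Uhrf1 and the de novo enzymes known to be turned down. The libraries measure RNA, so methylation itself and the amounts of the proteins were not observed. Counts are per gene and do not separate isoforms, such as the short Dnmt3a form used in ESCs.

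Libraries held 25411033 to 30680191 counts on genes, at which 3 counts are 0.0978 to 0.118 CPM, the usual unit of counts scaled to library size (with TMM factors wherever a level is given). Replicates differed most in SCLCs, with a chi-square of 30.7 per degree of freedom over genes against 1.44 in tc;Sf1ESCs. The marker sums set the groups apart, but single markers of the labels varied. The 10 naive pluripotency markers summed to 6181 to 6927 CPM in ESCs, 4253 to 4446 in todPGCLCs and 1174 to 1376 in SCLCs. All 12 Sertoli markers exceeded 3 counts in both SCLC libraries, where their summed level was 863 to 873 CPM against 39.7 to 70.9 in ESCs and 188 to 218 in todPGCLCs. Most of the SCLC sum was Gata4 (432 and 451 CPM) and Cited2 (329 and 302 CPM), which other cell types also express. The defining Sertoli gene Amh had 0.393 and 0.791 CPM in SCLCs against 0.586 to 0.879 CPM in ESCs, and Wt1 and Dmrt1 were higher in todPGCLCs than in SCLCs by 2.80 and 2.05 on the log2 scale. Sox9, which drives Sertoli fate, had 8.09 and 4.68 CPM in SCLCs, 2.35 and 4.72 CPM in todPGCLCs and at most 0.272 CPM in ESCs. The 9 visceral endoderm markers summed to 1816 to 3326 CPM in SCLCs and to at most 34.1 elsewhere, and the 7 trophectoderm markers to 759 to 966 CPM in SCLCs and to at most 169 elsewhere. Most of the trophectoderm sum in SCLCs was Krt8 (353 and 442 CPM) and Krt18 (389 and 488 CPM), while Elf5 had 0.196 and 0.468 CPM. Of the 6 trophectoderm markers tested, 4 were called higher and 1, Tfap2a, lower in SCLCs than in tc;Sf1ESCs. Of all genes, 24.2% were called higher and 18.0% lower there. The 8 early germ cell markers summed to 1045 to 1085 CPM in todPGCLCs and to 519 to 667 in the other groups. In todPGCLCs against tcESCs 4 of the 8 were called higher, Prdm1, Tfap2c, Dppa3 and Dnd1. Kit, the largest part of the todPGCLC sum, was not called (log2 fold change 0.25), nor were Itga6 (-0.49), Prdm14 (-0.43) and Nanos3 (0.60). Against tc;Sf1ESCs 4 were called higher and 1, Nanos3, lower (-1.62). The 8 formative epiblast markers summed to 267 to 269 CPM in todPGCLCs and to at most 72.2 elsewhere. The part of these cells in the values below was not tested, and in bulk libraries fewer cells of a type and less RNA per cell cannot be told apart.

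A gene was called when its fold change was greater than 2 and its adjusted p under 0.05 in edgeR's quasi-likelihood test over all 16707 genes. The groups differed broadly, so the counts of called members are given beside the share of all genes called. Between tc;Sf1ESCs and tcESCs 3 of the 10 members were called, all lower in tc;Sf1ESCs, where 12.0% of all genes were called (6.13% higher, 5.85% lower). In SCLCs against tc;Sf1ESCs 6 were called, 3 in each direction, where 42.2% of genes were called (24.2% higher, 18.0% lower). In SCLCs against tcESCs 8 were called, 3 higher and 5 lower, where 42.6% were (24.4% higher, 18.2% lower). In todPGCLCs against tcESCs 5 were called, 2 higher and 3 lower, where 29.4% of genes were (18.1% higher, 11.2% lower). Against tc;Sf1ESCs 3 were called, 2 higher and 1 lower, where 32.7% were (19.4% higher, 13.3% lower), and against SCLCs 5, 3 higher and 2 lower, where 38.0% were (18.5% higher, 19.5% lower). The lower calls in todPGCLCs against tcESCs and against SCLCs include Tdg, which was not called once reads on its near-identical copies were added. Comparisons that share a group are not independent of each other.

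**Figure D1:**
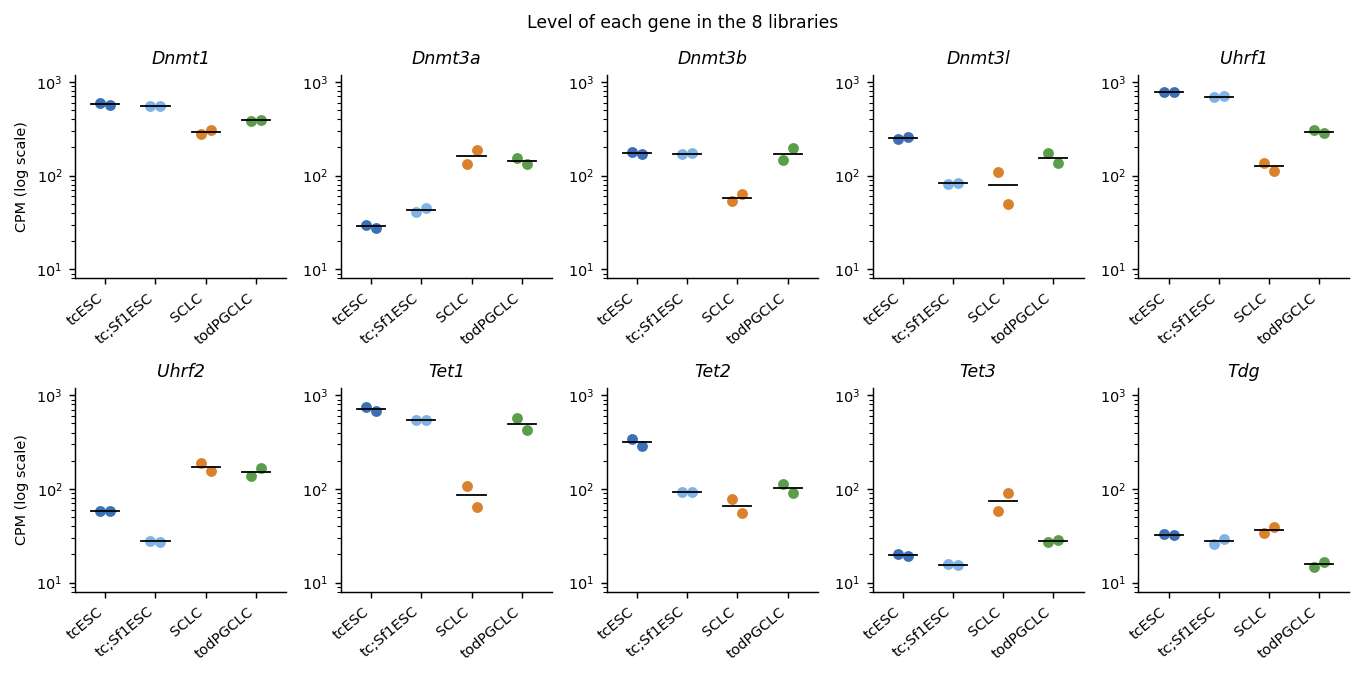
Level of each gene in CPM on a log scale, with a point for each of the 2 libraries of a group and a line at their mean. By group mean, Uhrf1 and Tet1 were lowest in SCLCs and Dnmt3a, Uhrf2 and Tet3 highest there, and for Dnmt3l the 2 SCLC libraries stood at 109 and 49.5 CPM.

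The maintenance pair of ESCs was Uhrf1 and Dnmt1. Uhrf1 encodes the reader of hemimethylated CpG. Its level was 790.5 and 779.9 CPM in tcESCs, 696 and 699.7 CPM in tc;Sf1ESCs, 138 and 113 CPM in SCLCs, and 305 and 284 CPM in todPGCLCs. Every SCLC library lay below every todPGCLC library, and both groups lay below all ESC libraries. Uhrf1 fell 5.55-fold from tc;Sf1ESCs to SCLCs (log2 fold change -2.47, SE 0.0958, adjusted p = 9.06e-08). In todPGCLCs it was 2.67-fold lower than in tcESCs (log2 fold change -1.42, SE 0.0921, adjusted p = 4.29e-06) and 2.34-fold higher than in SCLCs (log2 fold change 1.23, SE 0.0926, adjusted p = 5.15e-06). Between the 2 ESC groups the difference in Uhrf1 did not pass the test (log2 fold change -0.17, 95% confidence interval -0.38 to 0.04).

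Dnmt1, the maintenance methyltransferase gene, had 601 and 564 CPM in tcESCs, 557 and 554 CPM in tc;Sf1ESCs, 279.7 and 308 CPM in SCLCs, and 381 and 397 CPM in todPGCLCs. It moved in the same order as Uhrf1 but over a narrower range, so the ratio of its highest to its lowest group mean was 1.98 against 6.25 for Uhrf1. The decrease in SCLCs stayed just under the 2-fold limit, at 1.89-fold against tc;Sf1ESCs and 1.98-fold against tcESCs (log2 fold change -0.99, SE 0.0707, adjusted p = 2.67e-06). With another filter or with library totals the second of these passed the limit, at a log2 fold change down to -1.05. In todPGCLCs Dnmt1 was 1.496-fold lower than in tcESCs (adjusted p = 0.000132), also without reaching 2-fold.

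Uhrf2, the paralog of Uhrf1, whose product binds hydroxymethylated DNA but does not replace UHRF1 in maintenance, ran the other way. It had 57.9 and 58.9 CPM in tcESCs, 27.97 and 27.0 CPM in tc;Sf1ESCs, 187 and 154 CPM in SCLCs, and 139 and 167 CPM in todPGCLCs. The ESC groups lay apart from each other and below both derived groups, whose libraries overlapped. Uhrf2 rose 6.21-fold from tc;Sf1ESCs to SCLCs (log2 fold change 2.63, SE 0.120, adjusted p = 1.92e-07) and was 5.57-fold higher in todPGCLCs than in tc;Sf1ESCs (log2 fold change 2.48, SE 0.119, adjusted p = 8.29e-07). Against tcESCs, the increases were 2.92-fold in SCLCs and 2.62-fold in todPGCLCs, since Uhrf2 was 2.12-fold lower in tc;Sf1ESCs than in tcESCs (log2 fold change -1.09, SE 0.118, adjusted p = 0.000269). The last of these calls was lost when the test was made against a 2-fold change.

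In share of the 2 UHRF transcripts, counted as CPM per kilobase of annotated exon, Uhrf1 made up 96.4% ± 0.0719 (SD, n = 2) in tcESCs and 98.1% ± 0.0527 in tc;Sf1ESCs. It made up 59.8% ± 0.0366 in SCLCs and 79.5% ± 2.98 in todPGCLCs. With the longest annotated transcript as the length, the share of Uhrf1 in SCLCs was 42.1%, so which paralog led there depended on the length used, whereas Uhrf1 led in the other 3 groups with either length, at 65.5% or more.

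The sequences upstream of this pair are shown because the 2 genes moved in opposite directions in SCLCs and todPGCLCs. They are the 250 bases before a RefSeq start, read on the gene's strand (GRCm38.p6), for Uhrf1 at chr17:56304063-56304312 on the plus strand, the more downstream of its 2 listed starts, and for Uhrf2 at chr19:30030263-30030512 on the plus strand. The Uhrf2 window ends before its annotated gene, which starts at 30030513, whereas the Uhrf1 window lies inside its annotated gene, which starts at 56303321. Capitals mark the GC box GGGCGG and the box CCAAT, searched on both strands.
Uhrf1: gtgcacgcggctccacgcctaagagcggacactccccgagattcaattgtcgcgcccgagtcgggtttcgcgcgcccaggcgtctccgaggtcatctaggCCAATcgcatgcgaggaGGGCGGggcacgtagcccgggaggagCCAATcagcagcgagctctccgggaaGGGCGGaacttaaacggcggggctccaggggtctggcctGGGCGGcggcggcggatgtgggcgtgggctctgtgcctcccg
Uhrf2: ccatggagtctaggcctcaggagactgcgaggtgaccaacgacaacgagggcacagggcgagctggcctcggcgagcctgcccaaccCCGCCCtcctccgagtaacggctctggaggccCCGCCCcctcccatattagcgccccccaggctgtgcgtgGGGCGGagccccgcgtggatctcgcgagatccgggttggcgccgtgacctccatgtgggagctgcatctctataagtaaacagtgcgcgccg
Both windows held 3 GC boxes, and Uhrf1 also held 2 CCAAT boxes, which the window of Uhrf2 did not. CpG sites numbered 30 in the Uhrf1 window and 23 in that of Uhrf2. The other listed Uhrf1 window, at chr17:56303087-56303336, held 1 GC box, 1 CCAAT box and 10 CpG sites, so the likeness to Uhrf2 depended on the window shown.

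All 10 genes had RefSeq windows, 17 in all, with a median of 17 CpG sites in 250 bases (range 2 to 51) against a median of 6 over 32536 windows of all genes. GC boxes were in 12 of the 17 windows, spread over 9 of the 10 genes (Tdg was the exception), against 10727 of the 32536 windows, and CCAAT in 6 against 11000. The E-box CACGTG was in 3 windows, of Dnmt3a, Dnmt3l and Tdg, against 6.04% of all, and the cyclic AMP element TGACGTCA in that of Tdg against 1.56%. No member's window held the NR5A element CAAGGTCA (1.33% of all windows), the octamer ATGCAAAT (1.62%), the E2F forms TTTCCCGC (0.901%) and TTTGGCGC (0.421%), the palindromic NRF1 consensus (0.784%) or the ETS element CCGGAAGT (2.9%). These are letters in a window and not measured sites.

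Of the de novo enzymes, Dnmt3a and Dnmt3b did not move together. Dnmt3a had 30.04 and 27.6 CPM in tcESCs, 41.4 and 44.7 CPM in tc;Sf1ESCs, 135 and 187 CPM in SCLCs, and 154 and 133 CPM in todPGCLCs. Both derived groups lay above all ESC libraries and overlapped with each other. Dnmt3a rose 3.73-fold from tc;Sf1ESCs to SCLCs (log2 fold change 1.90, SE 0.149, adjusted p = 4.76e-06) and was 4.98-fold higher in todPGCLCs than in tcESCs (log2 fold change 2.32, SE 0.153, adjusted p = 4.66e-06). It was 1.495-fold higher in tc;Sf1ESCs than in tcESCs (adjusted p = 0.0186), under the 2-fold limit.

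Dnmt3b had 178 and 168 CPM in tcESCs, 169.7 and 174 CPM in tc;Sf1ESCs, 53.6 and 63.0 CPM in SCLCs, and 146 and 195 CPM in todPGCLCs. The SCLC libraries lay below the rest, which overlapped. Dnmt3b fell 2.94-fold from tc;Sf1ESCs to SCLCs (log2 fold change -1.56, SE 0.133, adjusted p = 8.21e-06) and was 2.92-fold higher in todPGCLCs than in SCLCs (adjusted p = 1.12e-05). Against tcESCs its difference in todPGCLCs was -0.02 on the log2 scale, with a 95% confidence interval of -0.32 to 0.27. A germline paralog, Dnmt3c, matched 33.2% of the Dnmt3b transcript at 93.9% identity but had 0 to 8 counts in any library, and adding these counts changed no call of Dnmt3b.

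Of the exon-length scaled level of Dnmt3a and Dnmt3b together, Dnmt3a made up 4.85% ± 0.0977 (SD, n = 2) in tcESCs, 7.14% ± 0.259 in tc;Sf1ESCs, 45.6% ± 2.90 in SCLCs and 20.9% ± 5.04 in todPGCLCs. With the longest transcript as the length, the SCLC share was 54.9%, so that Dnmt3a led there by that measure and Dnmt3b by the other. Dnmt1 remained the main catalytic gene in each group, at 55.8% to 68.9% of the 3 together with exon lengths and 55.1% to 69.7% with the longest transcripts.

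Dnmt3l, which stimulates the de novo enzymes and has no activity of its own, had 248 and 258 CPM in tcESCs, 82.4 and 83.1 CPM in tc;Sf1ESCs, 109 and 49.5 CPM in SCLCs, and 173 and 137 CPM in todPGCLCs. The 2 SCLC libraries lay on either side of tc;Sf1ESCs, and tcESCs lay above all other groups. Dnmt3l was 3.06-fold lower in tc;Sf1ESCs than in tcESCs (log2 fold change -1.61, SE 0.290, adjusted p = 0.00323). That call did not hold in a test against a 2-fold change (adjusted p = 0.153). The difference between SCLCs and tc;Sf1ESCs was -0.07 on the log2 scale (95% confidence interval -0.72 to 0.59), and it turned to 0.40 without SCLC replicate 2. In todPGCLCs Dnmt3l was 1.87-fold higher than in tc;Sf1ESCs (adjusted p = 0.0214) and 1.96-fold higher than in SCLCs (adjusted p = 0.0145), both under the limit. The latter, 0.97 on the log2 scale, passed the limit without SCLC replicate 1 (1.64) or todPGCLC replicate 2 (1.14), with library totals (1.1) and with the replicate number as a block (1.01), and it was 0.50 without SCLC replicate 2. The difference from tc;Sf1ESCs passed it without todPGCLC replicate 2 (1.07).

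Dnmt3l shares exon sequence on the opposite strand with Aire, a transcription factor gene, and a strand setting of the counting is not given in the sources used here. Aire had 36 to 39 counts in tc;Sf1ESCs, 239 and 268 in tcESCs, 903 and 338 in SCLCs, and 1946 and 1302 in todPGCLCs, against 1376 to 7917 for Dnmt3l. The part of such reads in Dnmt3l was not tested.

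**Figure D2:**
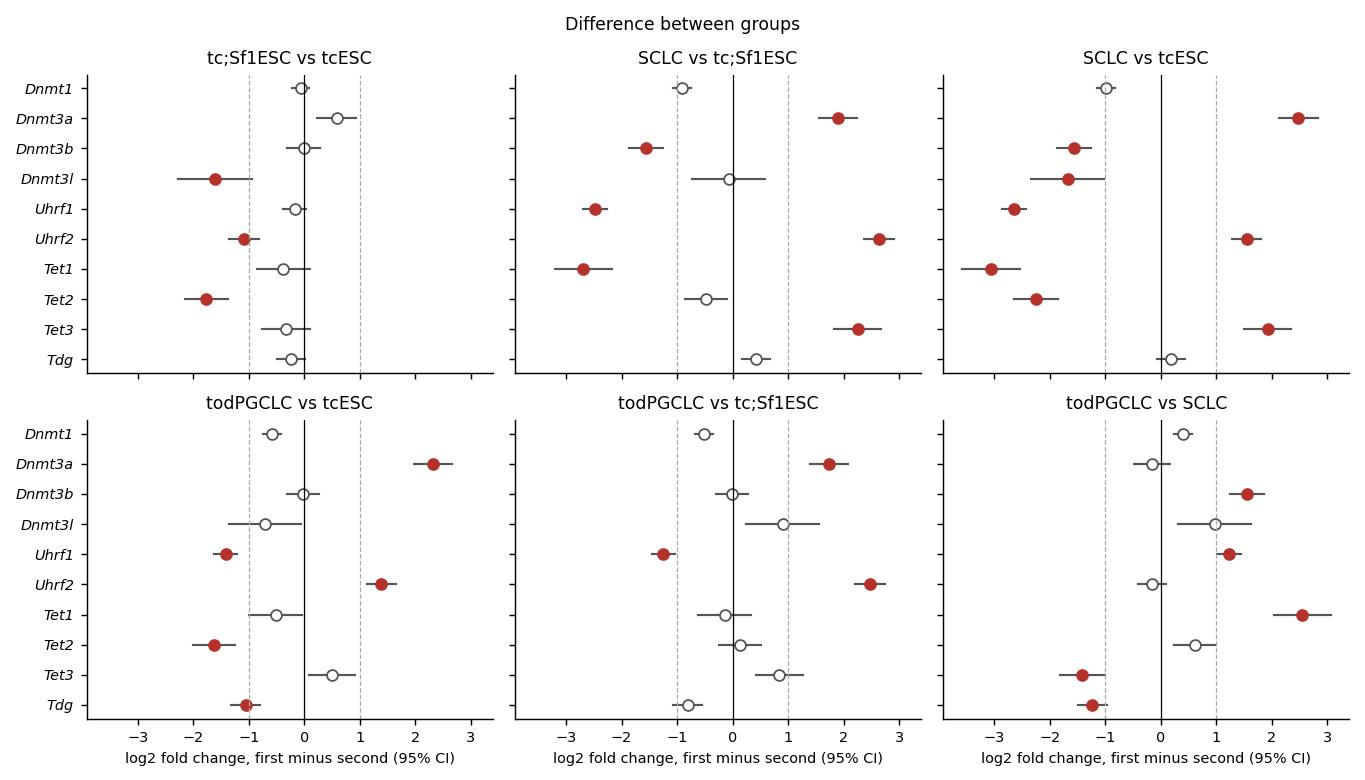
Log2 fold change of each gene (first group minus second) with its 95% confidence interval in the 6 comparisons. Filled points were called, dashed lines mark a 2-fold change, and Dnmt3a and Uhrf2 lie above 1 in all 4 comparisons of a derived group with an ESC group while Uhrf1 lies below -1 in them.

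The TET genes split in SCLCs. Tet1, the main TET gene of ESCs, had 749.6 and 678 CPM in tcESCs, 549.7 and 551 CPM in tc;Sf1ESCs, 107 and 63.8 CPM in SCLCs, and 572 and 427 CPM in todPGCLCs. SCLCs lay far below the rest, and todPGCLCs overlapped with tc;Sf1ESCs. Tet1 fell 6.46-fold from tc;Sf1ESCs to SCLCs (log2 fold change -2.69, SE 0.227, adjusted p = 7.36e-06) and was 5.87-fold higher in todPGCLCs than in SCLCs (log2 fold change 2.55, SE 0.225, adjusted p = 1.30e-05). Against tcESCs it did not pass the test in todPGCLCs (log2 fold change -0.52, 95% confidence interval -0.997 to -0.03, adjusted p = 0.0605).

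Tet2, whose product lacks the DNA-binding CXXC domain of its relatives, had 343 and 287 CPM in tcESCs, 92.6 and 92.5 CPM in tc;Sf1ESCs, 77.9 and 55.2 CPM in SCLCs, and 114 and 89.9 CPM in todPGCLCs. The tcESC libraries lay above all others, which spanned 55.2 to 114 CPM. Tet2 was 3.40-fold lower in tc;Sf1ESCs than in tcESCs (log2 fold change -1.77, SE 0.169, adjusted p = 0.000152), 4.74-fold lower in SCLCs and 3.09-fold lower in todPGCLCs (log2 fold change -1.63, SE 0.168, adjusted p = 5.5e-05). Between tc;Sf1ESCs and SCLCs the difference was 1.39-fold (adjusted p = 0.0301). Of the 3 members called between the ESC groups, Tet2 was the one that also passed a test against a 2-fold change (adjusted p = 0.00743).

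Tet3, known for its role in the zygote and in neural cells, had 20.01 and 19.0 CPM in tcESCs, 15.7 and 15.3 CPM in tc;Sf1ESCs, 57.9 and 90.2 CPM in SCLCs, and 26.9 and 28.5 CPM in todPGCLCs. SCLCs lay above all other libraries and todPGCLCs above all ESC libraries. Tet3 rose 4.78-fold from tc;Sf1ESCs to SCLCs (log2 fold change 2.26, SE 0.186, adjusted p = 6.5e-06) and was 2.67-fold lower in todPGCLCs than in SCLCs (log2 fold change -1.42, SE 0.178, adjusted p = 0.000113). In todPGCLCs it exceeded tc;Sf1ESCs 1.79-fold (adjusted p = 0.0036), under the limit. Genes of chromosome 6, where Tet3 lies, had a median log2 fold change of -0.32 in tc;Sf1ESCs against tcESCs, close to the -0.33 of Tet3 itself. The median was also -0.31 in SCLCs and -0.29 in todPGCLCs against tcESCs, and from -0.02 to 0.05 between the other groups, so that the tcESC libraries stood apart for this chromosome. For Tet2 on chromosome 3 the median between the ESC groups was 0.19, opposite in sign to its decrease.

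Among the 3 TET transcripts per kilobase of exon, Tet1 made up 70.0% ± 1.02 (SD, n = 2) in tcESCs, 84.7% ± 0.0657 in tc;Sf1ESCs, 39.1% ± 9.77 in SCLCs and 80.6% ± 1.31 in todPGCLCs. Tet3 made up 1.77% ± 0.0879 in tcESCs and 32.7% ± 13.5 in SCLCs. The 2 SCLC libraries differed in which gene led, since Tet1 held 46.0% and Tet3 23.1% in replicate 1 and Tet1 held 32.2% and Tet3 42.2% in replicate 2. The share of Tet2 was 28.2% in both tcESCs and SCLCs, and 13.1% and 15.1% in tc;Sf1ESCs and todPGCLCs. With the longest transcripts, Tet1 still led in the ESC and todPGCLC groups, at 58.0% to 76.9%. In SCLCs the mean shares of Tet2 (36.1%) and Tet3 (34.6%) were then close, and Tet2 led in replicate 1 but Tet3 in replicate 2.

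**Figure D3:**
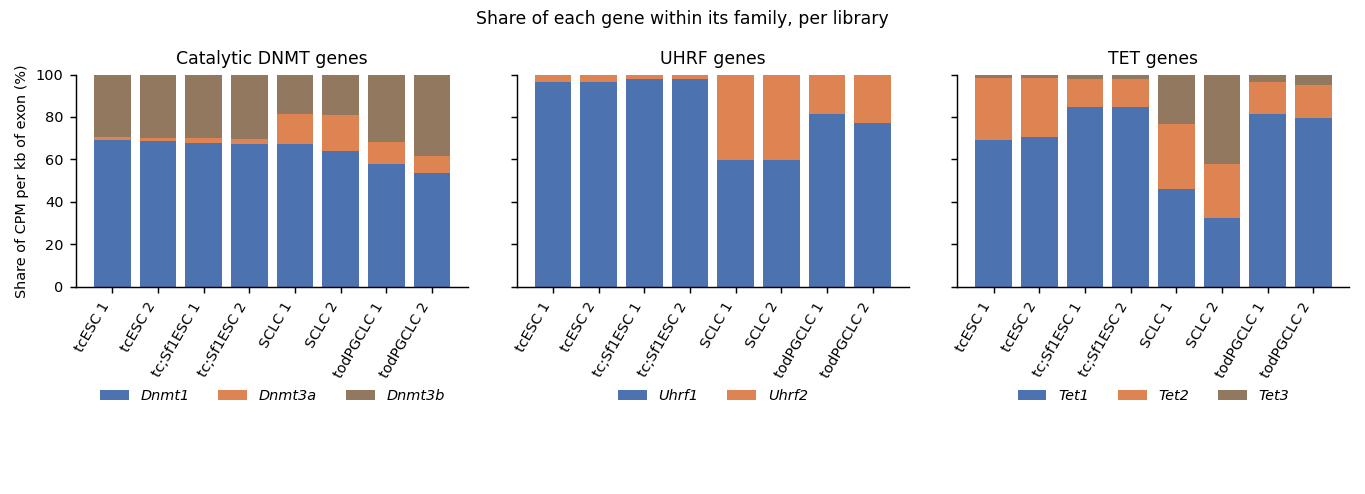
Share of each gene in the summed CPM per kilobase of exon of its family, in percent, for each library. Bars of the ESC libraries are nearly all Uhrf1 and largely Tet1, and in the 2 SCLC libraries Uhrf2 takes 40.2% and 40.3% and Tet3 takes 23.1% and 42.2%.

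Tdg, the glycosylase gene, has near-identical copies in the genome, and its values are given with theirs. It had 32.7 and 32.4 CPM in tcESCs, 25.8 and 29.3 CPM in tc;Sf1ESCs, 34.1 and 39.6 CPM in SCLCs, and 14.8 and 16.6 CPM in todPGCLCs. The todPGCLC libraries lay below all others, and Tdg was called lower there against tcESCs (2.07-fold, log2 fold change -1.05, SE 0.114, adjusted p = 7.21e-05) and SCLCs (2.35-fold, adjusted p = 1.76e-05). Both calls were lost when reads counted on its copies were added, chiefly those on a processed pseudogene, Gm9855, at chr10:42054113-42055306 on the minus strand. Without added copies, the call against tcESCs was also lost with library totals and in a test against a 2-fold change.

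Gm9855 matches 1194 bases of the Tdg transcript with 9 mismatches, 99.2% identity. It had 521 and 536 counts in the 2 todPGCLC libraries and 1 to 10 counts in the other 6, while Tdg had 429 and 463 counts in todPGCLCs and 662 to 1102 in the others. A stretch of 30 bases with 3 of the mismatches is shown for both, since within the matching stretch the 2 genes differ only at such positions. It lies in exon 10 of Tdg at chr10:82648604-82648633 on the plus strand and in Gm9855 at chr10:42054200-42054229 on the minus strand (GRCm38), with mismatches in capitals.
Tdg: gaagcgGcccccAgcgatgttccGaatggg
Gm9855: gaagcgAcccccGgcgatgttccAaatggg

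**Figure D4:**
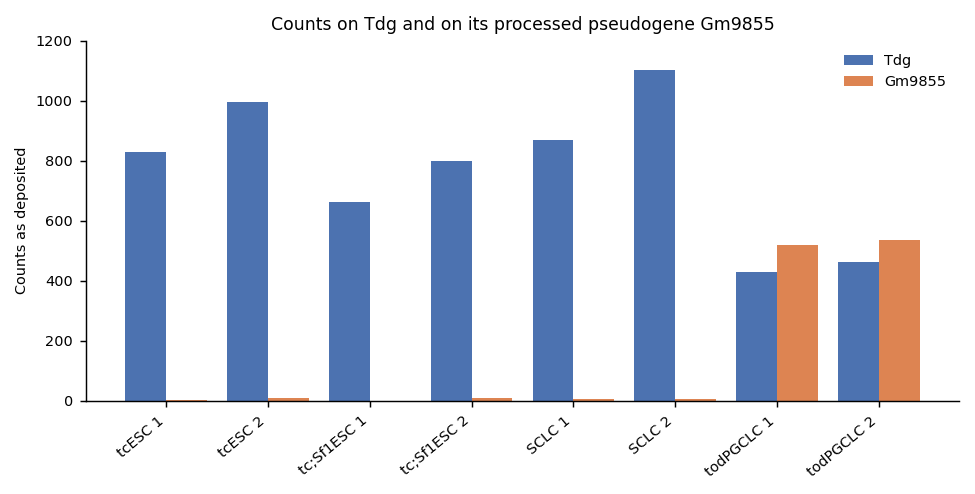
Deposited counts of Tdg and of the pseudogene Gm9855 in each library. Gm9855 has at most 10 counts in the 6 ESC and SCLC libraries and 521 and 536 in the todPGCLC libraries, where Tdg has 429 and 463.

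With the counts of Tdg, Gm9855 and the 2 other copies Tdg-ps and Gm5597 added together, a sum chosen after these counts were seen, the libraries held 840 and 1010 counts in tcESCs, 670 and 822 in tc;Sf1ESCs, 886 and 1117 in SCLCs, and 973 and 1018 in todPGCLCs. The sum in todPGCLCs differed from tcESCs by 0.09 on the log2 scale (95% confidence interval -0.16 to 0.33, adjusted p = 0.505) and from SCLCs by -0.10 (95% confidence interval -0.34 to 0.14, adjusted p = 0.433), and neither was called. Gm9855 alone was higher in todPGCLCs than in tcESCs by 6.42 on the log2 scale (SE 0.423, adjusted p = 4.66e-06). Whether those reads come from the pseudogene or from Tdg in the Prdm1-gfp line was not tested. Uhrf1 also has a processed pseudogene, Gm5648, with 5 to 50 counts against 3155 to 23971 for Uhrf1, and adding these counts changed no call of Uhrf1.

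The other genes of the pathway were taken as lists. Of 12 cofactors of methylation maintenance and targeting, 7 fell and 1 rose in SCLCs against tc;Sf1ESCs (18.0% and 24.2% of all genes), with a median log2 fold change of -1.18 against 0.02 over all genes. Zfp57, which protects imprinted methylation, fell most (log2 fold change -3.45, SE 0.117), followed by Hells, a chromatin remodeller needed for methylation of repeats (-1.74, SE 0.138). Usp7, the deubiquitinase that stabilises UHRF1 and DNMT1, went from 747 and 762 CPM in tc;Sf1ESCs to 303 and 328 CPM in SCLCs (log2 fold change -1.26, SE 0.0661). Pcna, the replication clamp that holds DNMT1 at forks, fell by 1.2 on the log2 scale (SE 0.0632). Usp7 was already lower in tc;Sf1ESCs than in tcESCs, by less than 2-fold (log2 fold change -0.70, adjusted p = 0.00013).

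Dppa3, whose product keeps UHRF1 away from chromatin, stood out in todPGCLCs. It had 24.8 and 25.9 CPM in tcESCs, 36.4 and 36.9 CPM in tc;Sf1ESCs, 51.1 and 15.8 CPM in SCLCs, and 147 and 173 CPM in todPGCLCs. The todPGCLC libraries lay above all others, 2.66 higher on the log2 scale than tcESCs (SE 0.413, adjusted p = 0.000558), and the SCLC libraries lay on either side of the ESCs. Zfp57 was lower in todPGCLCs than in tcESCs (log2 fold change -2.37, SE 0.111). These were the 2 of the 12 cofactors called in that comparison, a smaller share than the 29.4% of all genes called, and the list's median was -0.55 against 0.03 over all genes.

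Of 8 cofactors and partners of TET enzymes, 2 fell in SCLCs against tc;Sf1ESCs, near the 18.0% of all genes that did, with a median log2 fold change of -0.48. In todPGCLCs 4 of the 8 were higher than in SCLCs, where 18.5% of all genes were, with a median of 0.71. Cxxc5, which encodes a CXXC zinc finger protein, was the gene that fell beside Idh1 (-1.02), and it was higher in todPGCLCs than in SCLCs (1.26). D2hgdh, which encodes an enzyme that clears a TET inhibitor, was higher in todPGCLCs than in tcESCs (1.70). Idh1, which makes the TET cosubstrate alpha-ketoglutarate, was higher in tc;Sf1ESCs than in tcESCs by 1.54 on the log2 scale (SE 0.143, adjusted p = 0.000128) and lower in SCLCs than in tc;Sf1ESCs by 1.76, at 185 and 194 CPM, 556 and 542 CPM, and 133 and 191 CPM in the 3 groups. Cxxc4, a partner of TET2, had 0.20 to 0.46 CPM in the ESC and SCLC libraries and 1.52 and 1.57 CPM in todPGCLCs (log2 fold change 2.12 against tcESCs, SE 0.354, adjusted p = 0.000855), near the depth limit in the former.

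Of 10 genes that supply methyl donors, 9 were tested and 6 fell in SCLCs against tc;Sf1ESCs, where 18.0% of all genes did, with a median log2 fold change of -1.15. The serine hydroxymethyltransferase gene Shmt1 (-1.63, SE 0.082) and Ahcy, which clears the inhibitor left after methylation (-1.57, SE 0.113), fell most. The mitochondrial form Shmt2 was lower in todPGCLCs than in tcESCs (-1.03, SE 0.0751). Of 18 genes of base excision repair, 17 were tested, and 3 rose and 5 fell in SCLCs against tc;Sf1ESCs, where 24.2% of all genes rose and 18.0% fell, with a median log2 fold change of -0.30. Gadd45g, a stress gene linked to demethylation by repair, had 0.47 and 0.40 CPM in tc;Sf1ESCs and 37.5 and 28.5 CPM in SCLCs (log2 fold change 6.23, SE 0.283, adjusted p = 1.91e-07). Apobec2, of the cytidine deaminase family, fell (-2.76, SE 0.235). In todPGCLCs 5 of the 17 were higher than in tcESCs and 1 lower, where 18.1% and 11.2% of all genes were, with a median of 0.13. Neil3 (1.99, SE 0.226) and Gadd45a (1.55, SE 0.125) changed most.

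Of 10 readers of methylated or unmethylated CpG, 2 rose and 2 fell in SCLCs against tc;Sf1ESCs, near the 24.2% and 18.0% of all genes, with a median of 0.26. Genes for binders of methylated CpG went both ways. Zbtb4 rose from 3.93 and 3.59 CPM to 41.5 and 38.7 CPM (log2 fold change 3.41, SE 0.173) and Mbd2 from 18.0 and 15.7 CPM to 57.3 and 64.0 CPM (1.85, SE 0.123), whereas Zbtb38 fell (-1.82, SE 0.117), as did Kdm2b (-1.41, SE 0.0611), whose product binds unmethylated CpG islands. In todPGCLCs Kdm2b was lower than in tcESCs (-1.31, SE 0.061).

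Of 18 genes of replication and proliferation, 6 fell in SCLCs against tc;Sf1ESCs, where 18.0% of all genes did, with a median log2 fold change of -0.66, and their summed level was 3697 to 4266 CPM in SCLCs, 6213 to 6225 in tc;Sf1ESCs and 5760 to 5807 in todPGCLCs. Rrm2, a subunit gene of ribonucleotide reductase (-1.57, SE 0.0657), and Mcm3, of the replicative helicase (-1.51, SE 0.0819), fell most. The list was not uniform, since the proliferation marker gene Mki67 was higher in SCLCs by 0.76 (adjusted p = 1.11e-05), under the limit, and Top2a stood at 0.0801 (adjusted p = 0.512). In todPGCLCs against tcESCs, where Uhrf1 fell, the median of the list was -0.22. Of 10 naive pluripotency markers, 9 fell in SCLCs against tc;Sf1ESCs, where 18.0% of all genes did, with a median log2 fold change of -2.60. In todPGCLCs 4 were lower than in tcESCs, where 11.2% of all genes were, with a median of -0.81. The part of proliferation or of leaving the ESC state in the values of the 10 genes was not tested.

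A list of 13 germline genes known to be silenced by promoter methylation was set beside the enzymes. In tc;Sf1ESCs against tcESCs 10 were lower and 1 higher, where 5.85% of all genes were lower and 6.13% higher, with a median log2 fold change of -1.56. Taf7l (-4.20) and Mael (-3.79) fell most. In the same comparison Dnmt3l, Uhrf2 and Tet2 were called lower. The other members were not called, among them Dnmt1 (-0.07), Dnmt3b (-0.01) and Uhrf1 (-0.17). A link between the members and the germline genes was not tested. In SCLCs against tc;Sf1ESCs 9 of the 13 were higher and 1 lower (median 1.58), against 24.2% and 18.0% of all genes, with Taf7l (5.33) and Brdt (3.69) the largest. In todPGCLCs against tc;Sf1ESCs 11 were higher and 1 lower (median 2.46), against 19.4% and 13.3% of all genes, with Mael (5.71) and Brdt (4.65) the largest. These 3 comparisons share the tc;Sf1ESC libraries. In SCLCs against tcESCs 4 were higher and 3 lower (median 0.14), near the 24.4% and 18.2% of all genes. In todPGCLCs against tcESCs 6 were higher and 1 lower (median 0.42), against 18.1% and 11.2% of all genes.

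**Figure D5:**
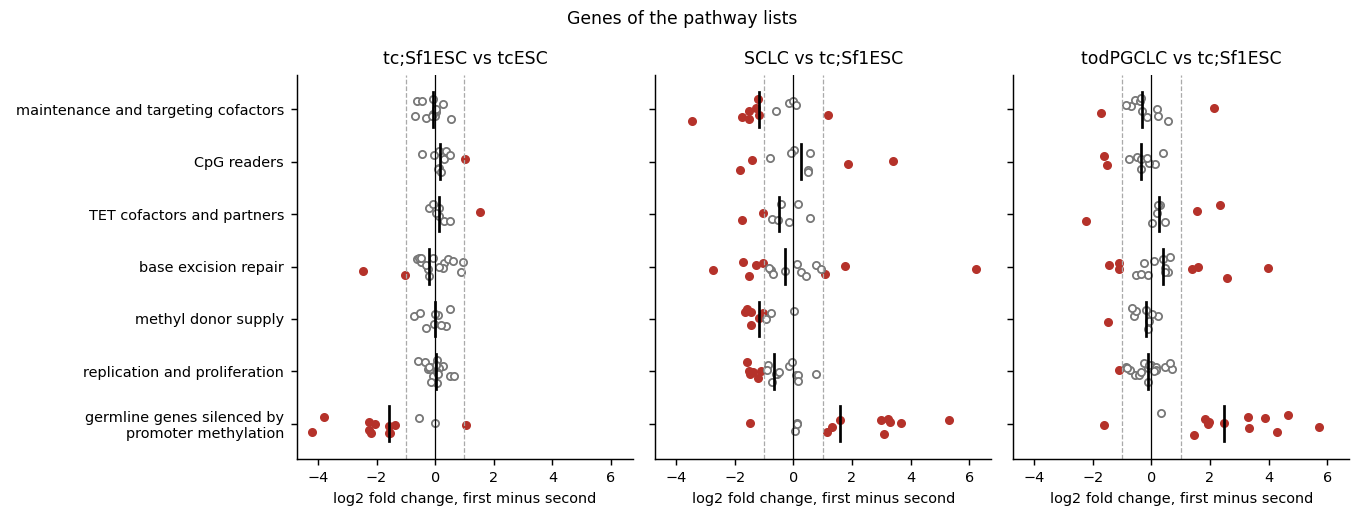
Log2 fold change (first group minus second) of each tested gene of 7 lists in the 3 comparisons that share tc;Sf1ESCs. Filled points were called, a bar marks each list's median and dashed lines a 2-fold change, and the median of the maintenance cofactors lies at -1.18 in SCLCs while that of the germline genes lies at -1.56, 1.58 and 2.46.

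The 2 genes with the profile most like each member over the 8 libraries were found by Pearson's r of log2 CPM among 14241 genes with a symbol and a mean of at least 1 CPM. The 8 points are 4 pairs of replicates, so r reflects group differences and is given as a description. The closest were Nfatc2ip (r = 0.9996) and Gtse1 (0.999) for Uhrf1, and Atp2c1 (0.999) and Gpatch4 (0.997) for Dnmt1. For Uhrf2 they were Flnc (0.997) and B3galnt1 (0.997), for Dnmt3a Pik3cb (0.997) and Sesn3 (0.994), for Dnmt3b Ammecr1 (0.993) and Wdr62 (0.992), and for Dnmt3l Mmp17 (0.991) and Poc1b (0.987). For Tet1 they were Zfp106 (0.998) and Hpdl (0.997), for Tet2 Zfp263 (0.99) and Fgl2 (0.986), for Tet3 Cnot6 (0.997) and Chpt1 (0.996), and for Tdg, with the limit above, Med22 (0.993) and Zfp943 (0.992). Uhrf1 shared its profile with 269 genes at r above 0.98, whereas Dnmt3l did so with 2 and Tet2 with 6.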

How the data were processed

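RNA of sorted or cultured cells was sequenced as strand-specific poly-A libraries with paired reads of 50 bases, in 8 libraries of 4 groups. The authors trimmed the reads with Trim Galore, aligned them to GRCm38 with STAR 2.4.0 and deposited raw counts of reads per gene, made with HTSeq. The annotation release and the counting options are not given in the sources used here. Reads with more than 1 alignment (20.5% to 27.5%) were set aside, which bears on genes with near-identical copies, as were those on no gene (6.45% to 8.32%), on overlapping genes (2.96% to 3.14%) or not aligned (2.38% to 5.004%). These rows entered no library size.

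Counts were fitted here in edgeR 4.0.16 (R 4.3.3) with TMM scaling, all 8 libraries in 1 quasi-likelihood fit of 4 groups, keeping the 16707 genes whose counts averaged above 10, with Benjamini-Hochberg adjustment. The SE was taken from the log2 fold change and F. Gene names, exon lengths and coordinates came from GENCODE M21 and upstream sequences from RefSeq. The fit was first tested on simulated data. The genes and lists were chosen with earlier results of these data known. All members are named. From each pathway list the 2 called genes with the largest log2 fold change and a mean of at least 1 CPM were named in the comparisons described, plus Dppa3, Hells, Pcna, Usp7 and Cxxc4, and 2 genes that this rule selects are not reported here. Zbtb38, Kdm2b in SCLCs, and the genes named from the marker, replication and germline lists were chosen after their values were seen. Alternatives were RLE factors, library totals, filterByExpr, genes with at least 1 count, the 4 libraries compared alone, the 6 libraries without todPGCLCs, DESeq2 1.42.0, a test against a 2-fold change, a replicate block and each library left out. P-values measure the spread between 2 libraries a group, and the 3-count limit covers counting error only.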

Additional observations from a re-analysis of the deposited data

How the results depend on the processing

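Of 768 log2 fold changes of the 10 genes under alternatives, 741 kept their direction and side of the limits, 6 lost the call, 11 gained it and 10 turned sign. A test against a 2-fold change left 1 member called between tc;Sf1ESCs and tcESCs instead of 3, with 624 genes called in all. In todPGCLCs against tcESCs it left 4 members called instead of 5, Tdg being lost, with 3078 genes called in all. With each library left out, the members called numbered 3 to 3 in tc;Sf1ESCs against tcESCs (1408 to 1437 of all genes), 6 to 6 in SCLCs against tc;Sf1ESCs (6691 to 7134), 8 to 9 in SCLCs against tcESCs (6692 to 7181), 4 to 5 in todPGCLCs against tcESCs (4421 to 4561), 3 to 4 against tc;Sf1ESCs (5082 to 5190) and 5 to 6 against SCLCs (5764 to 6646). Replicate numbers did not pair the libraries (correlations of deviations -0.026 to 0.0624), and with the replicate block the counts of members called were 3, 6, 8, 5, 3 and 6 in that order, the gain being Dnmt3l. With each library left out, sign turned for Dnmt3l in SCLCs against tc;Sf1ESCs (-0.73 to 0.40, the latter without SCLC replicate 2) and for Dnmt3a in todPGCLCs against SCLCs (-0.39 to 0.0817, without SCLC replicate 2). In todPGCLCs against tc;Sf1ESCs it turned for Tet2 (-0.0345, without todPGCLC replicate 1, to 0.31) and Tet1 (-0.36 to 0.0633, without todPGCLC replicate 2). For Dnmt3b in todPGCLCs it turned against tcESCs (-0.24 to 0.18, without todPGCLC replicate 1, and 0.0495 with library totals) and against tc;Sf1ESCs (-0.23 to 0.19, without the same library, and 0.0786 with library totals). For Tdg with its copies added it turned against tcESCs (0.086) and tc;Sf1ESCs (0.32). Without added copies, Tdg lost its call against tcESCs with library totals and in a test against a 2-fold change. It came under the 2-fold limit without todPGCLC replicate 1 (-0.967). Calls were gained by Dnmt1 in SCLCs against tcESCs without tcESC replicate 2 or SCLC replicate 2, and by Dnmt3l in todPGCLCs without todPGCLC replicate 2 (1.07 against tc;Sf1ESCs) and, against SCLCs, without SCLC replicate 1 (1.64). The cause of these changes was not tested, except that those of Tdg with its copies added follow from the added counts. Library totals moved the median of all genes to 0.11, 0.10 and 0.15 in todPGCLCs against tcESCs, tc;Sf1ESCs and SCLCs.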
